A study of Equus caballus with 4 samples.

Results

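The fibro-adipogenic and adipocyte programme was followed in equine satellite cells treated with gamma-oryzanol (GO), a mixture of plant sterol and triterpene alcohol esters from rice bran. The genes were *PDGFRA*, *PDGFRB*, *ZNF423*, *PPARG*, *CEBPA*, *CEBPB*, *CEBPD*, *FABP4*, *LPL* and *ADIPOQ*, taken as the noncontrol array probes whose gene name equals one of these symbols, whatever the case of its letters. The list held 10 genes, of which 7 had a probe, among 14588 genes named on the array, with 15 of its 43603 noncontrol probes. The other 3 listed genes, *CEBPA*, *CEBPB* and *CEBPD*, had no probe under these names, so no value is given for them. The genes were chosen by their known roles and with the log ratios of the same 4 arrays in view, so their values are a description. No p-value of a member is printed. Where a member is said to be past the thresholds or not, that marks its place in the fit over all probes and supports nothing about the member.

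Satellite cells were cultured from the *semitendinosus* muscle of 6-month-old colts, and the methods state that 1 cell line was taken forward from the primary cultures of several horses. Cells in differentiation medium received 125 nM GO in DMSO for 24 h or the vehicle alone (0.04 µl/ml DMSO), and RNA was collected on day 3 of differentiation. On each of 4 two-color arrays the GO-treated sample was labeled with Cy5 and the control sample with Cy3. The labels call the 4 arrays biological replicates, and the sources do not say whether they came from separate animals or cultures, so the SDs and p-values measure the spread between these 4 arrays. Muscle had been trimmed of fat and connective tissue before isolation. Since the dyes were never swapped, dye and GO effects cannot be told apart. RNA came from whole cultures, in which fewer cells of a type and less RNA per cell cannot be told apart.

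Fibro-adipogenic progenitors are mesenchymal cells that lie between muscle fibers, carry the platelet-derived growth factor (PDGF) receptor alpha, help regenerating fibers, and are a source of fat and scar tissue in damaged muscle. In adipogenesis, the zinc finger protein ZNF423 marks commitment of a precursor, CCAAT/enhancer binding proteins (C/EBP) beta and delta act early, and PPAR gamma with C/EBP alpha then drives the mature fat cell. Its target genes include *FABP4*, which encodes the fatty acid carrier of adipocytes, *LPL*, which encodes lipoprotein lipase, and *ADIPOQ*, which encodes the secreted hormone adiponectin.

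The probes on which the values rest are shown first, each as printed on the array, 5′ to 3′. Both *PDGFRA* and both *ZNF423* probes are shown because they carry the differences between GO-treated and control cells, *PDGFRB* because it gives the sister receptor on the same arrays, and *FABP4* and *ADIPOQ* because their probes stayed near background. A sequence of 30 bases is the first part of its 60-base probe. Capitals in the *ADIPOQ* probe mark the 44 bases that all 5 *ADIPOQ* probes share.
PDGFRA A_69_P110266: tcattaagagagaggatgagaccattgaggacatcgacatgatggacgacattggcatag
PDGFRA A_69_P083756, first part: gaacaaagtaaaagtagtgtcttccaggaa
PDGFRB A_69_P061881: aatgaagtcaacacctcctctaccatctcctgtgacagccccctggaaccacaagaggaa
ZNF423 A_69_P081097, first part: attctaggtaattgtgcatcgtgatgtgat
ZNF423 A_69_P081096, first part: agactaatgctttgattggatttgccagtt
FABP4 A_69_P043281: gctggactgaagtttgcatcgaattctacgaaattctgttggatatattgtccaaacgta
ADIPOQ A_69_P030090: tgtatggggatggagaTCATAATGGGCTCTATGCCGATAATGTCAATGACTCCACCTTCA

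The array files place the *PDGFRA* probes at chr3:71551637-71551696 and chr3:71550691-71550750, 946 bases apart, on transcript ENSECAT00000020434. The *ZNF423* probes lie at chr3:2579014-2579073 and chr3:2578940-2578999, 74 bases apart, on transcript ENSECAT00000000207. The *PDGFRB* probe is at chr14:27127233-27127292 on transcript ENSECAT00000026808, the *FABP4* probe at chr9:6378569-6378628 on ENSECAT00000025544, and the 5 *ADIPOQ* probes overlap within chr19:20930633-20930708 on ENSECAT00000002827. All positions are those of the array files on the EquCab1 build, and the files list them in descending order for *PDGFRA* and *ZNF423* and in ascending order for *PDGFRB*, *FABP4* and *ADIPOQ*. Whether each probe lies in coding sequence or in a UTR was not determined here.

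Each spot has a processed signal per channel, in scanner units, and a log2 ratio of GO-treated over control. A probe was tested where it stood well above background, by the scanner software's own flag, on all 4 arrays in at least 1 channel. It was counted as past both thresholds at a limma p-value, adjusted by Benjamini and Hochberg over all probes tested, no higher than 0.05, with a fold change no smaller than 1.3. Of 26832 probes tested, 2399 were past both thresholds, a background of 8.94%, with 894 higher (3.33%) and 1505 lower (5.61%) in GO-treated cells. Centring each array on its median without lowess turned this split to 1740 higher and 1650 lower. Between 57.4% and 68.9% of noncontrol spots were well above background per channel and array, and 0 were saturated.

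The filter divided the members into tested genes and genes not tested, and of the latter *LPL* was measured on 3 arrays. *PDGFRA*, *PDGFRB* and *ZNF423* were tested, with 5 probes in all, while the 10 probes of *PPARG*, *FABP4*, *LPL* and *ADIPOQ* did not pass the filter, beside 38.5% of all probes that did not. Of the 15 probes, 4 were well above background in both channels on every array and 7 were so on no array in either channel. Of the 5 tested probes 4 were past both thresholds, both of *PDGFRA* higher and both of *ZNF423* lower. The same arrays were in view when the list was made, so this count is set beside the 8.94% of all tested probes and nothing is read from it. The median log2 ratio of the 5 probes was 0.04, and that of all tested probes was 0.00.

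**Figure D1:**
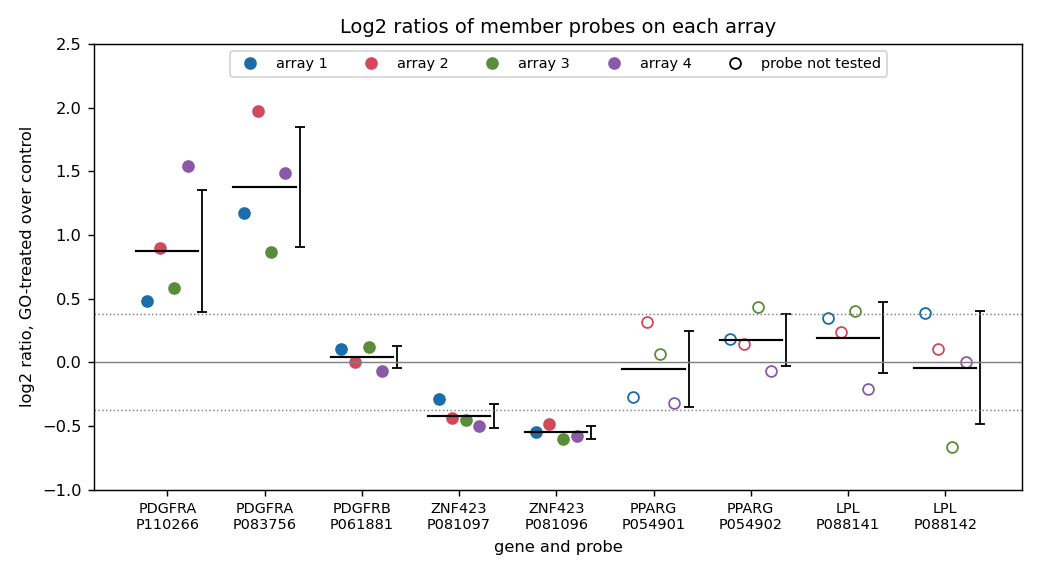
Log2 ratio (GO-treated over control) for 9 probes of 5 member genes, 1 point per array, with a line at the mean, a bar of 1 SD over 4 arrays and dotted lines at a fold change of 1.3. All points of both *PDGFRA* probes lie above 0, all points of both *ZNF423* probes lie below 0, and the open points of *PPARG* and *LPL* are probes that were not tested.

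*PDGFRA*, the receptor that defines fibro-adipogenic progenitors, had a higher signal in GO-treated than in control cells on every array. At probe A_69_P110266, well above background in both channels on all 4 arrays, the processed signal of control cells was 30.7, 23.8, 46.4 and 21.8 on arrays 1 to 4. The signal of GO-treated cells on the same arrays was 42.7, 44.3, 69.5 and 63.6. The highest control signal, on array 3, exceeded the GO-treated signals of arrays 1 and 2, so the groups overlapped across arrays although each pair ran the same way. The log2 ratios were 0.48, 0.90, 0.58 and 1.54, with a mean of 0.87 ± 0.48 (SD, n = 4), a fold change of 1.83. The ratio was largest on array 4, and the SD of the 4 ratios was exceeded by 1.90% of tested probes.

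The second *PDGFRA* probe, A_69_P083756, gave control signals of 18.3, 10.1, 29.7 and 16.6 and GO-treated signals of 41.3, 39.8, 54.1 and 46.4. These signals did not overlap between the groups, and the share of all tested probes without overlap is not given here. The control channel was well above background on arrays 1 and 3 and not on arrays 2 and 4, so the probe passed the filter only through the channel in which it was brighter. Its log2 ratios were 1.18, 1.97, 0.87 and 1.49, a mean of 1.38 ± 0.47 (SD, n = 4) that includes the 2 arrays without a measured control level. Array 2 had the highest ratio here and array 4 at the other probe, and the first minus the second probe reached −1.08 on the log2 scale, on array 2. The mean of the first probe was exceeded by 0.201% of tested probes.

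Both *PDGFRA* probes were dim, and the size of their ratios differed between ways of processing. At A_69_P110266 raw signals were between 2.16 and 3.17 times the local background for control cells and between 2.69 and 4.66 times for GO-treated cells, against array medians of 3.66 to 4.22 and 2.85 to 4.37. With normexp background correction, an offset of 50 and loess, all changed together, the log2 ratios of this probe were 0.02, 0.41, 0.30 and 0.73 with a mean of 0.37, below the fold threshold, and those of A_69_P083756 were 0.05, 0.59, 0.36 and 0.56 with a mean of 0.39. The call of the first probe was also lost without array 2, where the mean was 0.87, and both probes lost it without the filter on dim probes, with a plain one-sample test and with the channels taken as unpaired.

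*PDGFRB*, the receptor of pericytes and many other mesenchymal cells, had nearly equal signals in both channels. The control signals were 147, 196, 112 and 143 and the GO-treated signals 158, 196, 121 and 137 on arrays 1 to 4. The 4 arrays stood in the same order in both channels, and the ranges of the groups overlapped almost wholly. The log2 ratios were 0.11, 0.00, 0.12 and −0.07, with a mean of 0.04 ± 0.09 (SD, n = 4). Under 12 other settings, some of which cannot move a probe's mean, the mean lay between 0.01 and 0.08.

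*ZNF423*, the zinc finger factor of adipocyte commitment, had a lower signal in GO-treated than in control cells on every array and at both probes. At A_69_P081096 the control signals were 2033, 1542, 1786 and 1560, and the GO-treated signals 1391, 1105, 1178 and 1047. Every GO-treated signal lay below every control signal, and the share of all tested probes that separate so is not given here. The log2 ratios were −0.55, −0.48, −0.60 and −0.57, with a mean of −0.55 ± 0.05 (SD, n = 4), a fold change of 1.47 toward the control cells. Under the 12 other settings, some of which cannot move a probe's mean, its mean lay between −0.57 and −0.52.

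At A_69_P081097, the brighter *ZNF423* probe, the control signals were 2086, 1634, 1927 and 1513 and the GO-treated signals 1712, 1208, 1408 and 1068. Here the GO-treated signal of array 1 exceeded the control signals of arrays 2 and 4, so the groups overlapped across arrays. The log2 ratios were −0.28, −0.44, −0.45 and −0.50, with a mean of −0.42 ± 0.09 (SD, n = 4) and a fold change of 1.34. Its call was lost without array 2, with a mean of −0.41, with the plain one-sample test and with the channels taken as unpaired. The probe pair, 74 bases apart, differed by 0.13 on the log2 scale on average, and the raw signals were at least 30.1 times the local background in both channels at both probes. The 2 *ZNF423* ratios were moderate among all probes, with 5.39% of tested probes lower than the brighter probe and 3.06% lower than the other.

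**Figure D2:**
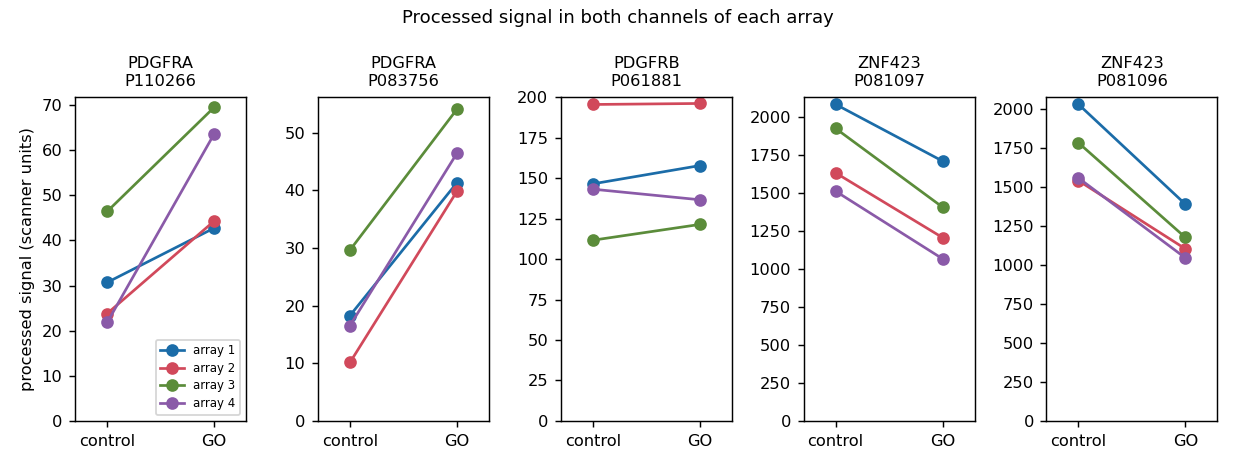
Processed signal in scanner units (linear axis from 0, one scale per probe) in the control and GO channels of each array, joined by a line per array, for the 5 tested probes. The lines rise on all 4 arrays at both *PDGFRA* probes, fall on all 4 at both *ZNF423* probes and stay nearly level at *PDGFRB*.

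**Figure D3:**
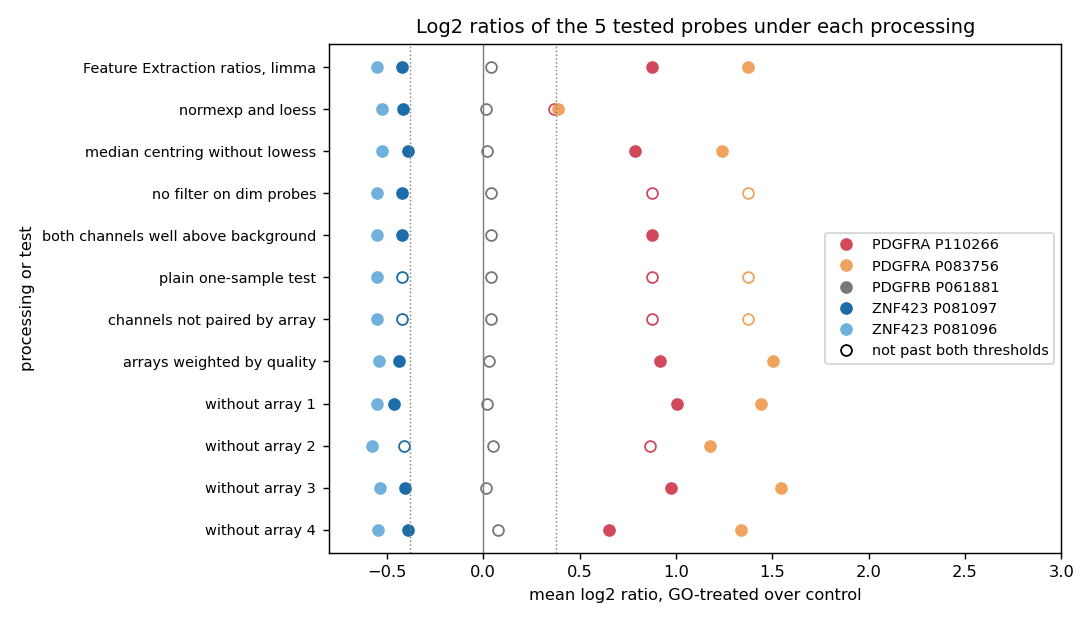
Mean log2 ratio of the 5 tested probes under the processing used and under other settings, filled where the probe was past both thresholds and open where it was not, with dotted lines at a fold change of 1.3. The *PDGFRA* means lie at 0.37 and 0.39 with normexp and loess and from 0.65 to 1.55 elsewhere, and the *ZNF423* means stay between −0.57 and −0.39.

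*PPARG*, the nuclear receptor that drives adipocyte differentiation, was near background in both groups. At probe A_69_P054901 (chr16:4853584-4853643) the control signals were 23.8, 12.5, 16.1 and 17.8 and the GO-treated signals 19.7, 15.6, 16.9 and 14.3. The control channel was well above background on arrays 1 and 3, and the GO channel on array 1 alone. The log2 ratios of −0.27, 0.32, 0.07 and −0.32 took both signs. The adjoining probe A_69_P054902 (chr16:4853644-4853703) was not well above background on any array.

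*LPL*, the lipase that releases fatty acids from circulating lipoproteins, was measured on 3 arrays. At probe A_69_P088141 (chrUn:42367460-42367519) the control signals were 57.8, 55.4, 76.8 and 14.3 and the GO-treated signals 73.5, 65.4, 101 and 12.4. Both channels were well above background on arrays 1 to 3 and neither was on array 4. The log2 ratios were 0.35, 0.24 and 0.40 on those 3 arrays and −0.21 on array 4, with a mean of 0.19 ± 0.28 (SD, n = 4). The probe was not tested, because it was not well above background on array 4. The other probe, A_69_P088142, spans an interval of 1066 bases (chrUn:42366381-42367446) with its 60 bases. It was well above background in both channels on array 1 alone, where its log2 ratio was 0.39.

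*FABP4* and *ADIPOQ*, the genes of the mature fat cell, were not well above background in either channel on any array. Raw signals of *FABP4* were between 1.37 and 1.68 times the local background for control cells and between 0.922 and 1.18 times for GO-treated cells. In place of its signal the scanner software wrote a substitute value in both channels on all 4 arrays. Its log2 ratio is given as 0 on each array although the substitutes differ between channels, so this 0 is not a measured ratio. The 5 overlapping *ADIPOQ* probes read 1 stretch of the transcript and count as 1 measurement of the gene. Their ratios are not read, since neither channel of any of them was well above background. Only a bound applies to these genes, and a low level of either cannot be told from none at this signal.

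**Figure D4:**
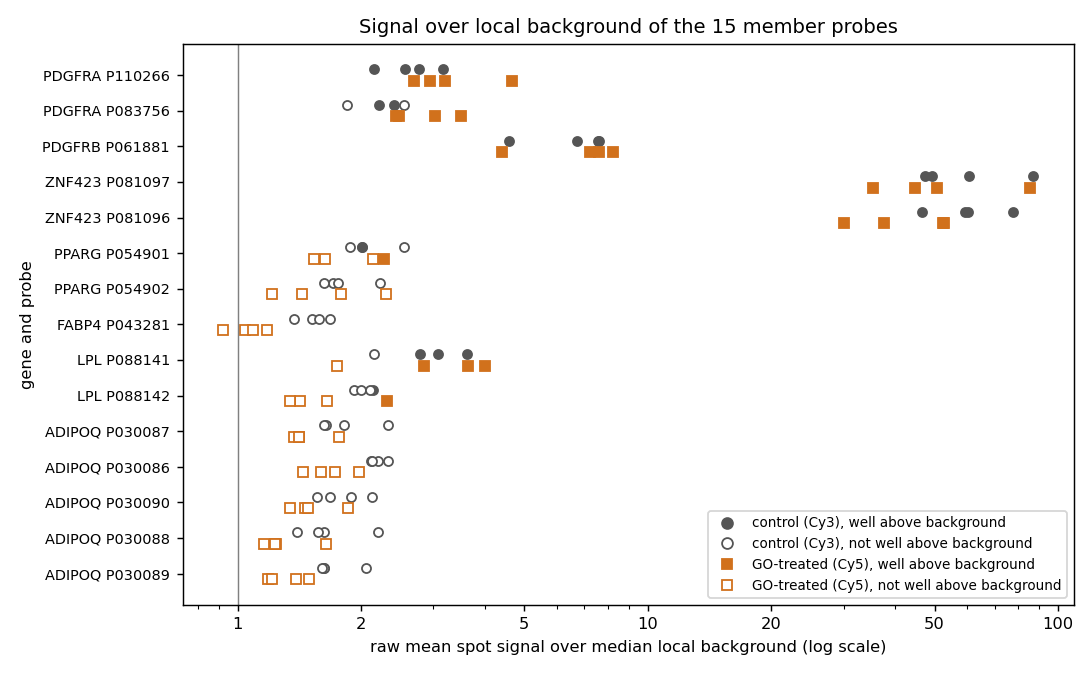
Raw mean signal over median local background (log axis) of the 15 member probes, with circles for control and squares for GO-treated cells, 1 point per array, filled where the spot was well above background. The *ZNF423* probes lie above 30, *PDGFRB* between 4 and 9, and *FABP4* and *ADIPOQ* have open points alone.

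The wider pathway was described with 7 lists of genes known from adipogenesis and mesenchymal cells, without the members. They named 126 genes, of which 102 had a probe and 73 were tested by their brightest probe. GO-treated cells had 5 genes higher and 5 lower past both thresholds, 13.7% of those tested (*DPP4* among the lower with only a bound in GO-treated cells, and *GPD1* measured there on 2 arrays), beside 8.68% of 9497 named genes on the array (3.31% higher and 5.37% lower). The median log2 ratio was 0.03 for the lists and 0.00 for all named genes. The count moved to 17, with 11 higher and 6 lower, with median centring in place of lowess, to 5 without array 3 and to 6 without array 2 or array 4.

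Of the PDGF ligands, which bind the 2 receptors above, *PDGFC* was the one gene tested. Its log2 ratio was −0.16 ± 0.12 (SD, n = 4) with a limma adjusted p of 0.145. *PDGFD* was not well above background on any array, and *PDGFB* was so on 1 array in each channel.

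Among 20 tested regulators of adipogenesis, 2 rose and 1 fell. *SREBF1*, a factor of fatty acid synthesis whose GO channel was well above background on 3 arrays, had a log2 ratio of 0.39 ± 0.20 (limma adjusted p = 0.0285), and *NR1H3*, the liver X receptor alpha, one of 0.39 ± 0.20 (limma adjusted p = 0.0287). *NCOA1*, a nuclear receptor coactivator, fell by 0.45 on the log2 scale (SD 0.12, limma adjusted p = 0.00901), with all 5 of its probes past both thresholds. With normexp and loess *NCOA1* was the 1 call of this list, and *SREBF1* and *NR1H3* were both at 0.08. The call of *SREBF1* was lost without any 1 of the 4 arrays, with means of 0.30 to 0.45, and that of *NR1H3* without array 1, 3 or 4, with means of 0.43, 0.35 and 0.33. Of the list genes whose symbol begins with *CEBP*, *CEBPG* had a log2 ratio of 0.16 ± 0.12 (limma adjusted p = 0.146) and *CEBPZ* one of −0.12 ± 0.05 (limma adjusted p = 0.162). *DDIT3*, which had the highest summed signal of this list, had a log2 ratio of −0.10 ± 0.08 (limma adjusted p = 0.283).

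Of 18 tested genes of lipid droplets, lipid storage and adipokines, 5 had a limma adjusted p of at most 0.05. *CIDEA* and *GPD1* were lower past both thresholds. *ABHD5* (0.30) and *ACACA* (0.32) were higher and *MGLL* (−0.25) was lower on all 4 arrays, with fold changes short of the threshold. *CIDEA*, a lipid droplet protein of brown fat, fell by 0.56 on the log2 scale (SD 0.16, limma adjusted p = 0.00676). *GPD1*, which makes glycerol phosphate for triglycerides, passed the filter only through the control channel. On arrays 1 and 2, where both channels were well above background, its log2 ratios were −0.11 and −0.53, and over all 4 arrays the mean was −0.70 ± 0.51 (limma adjusted p = 0.0422). The call of *GPD1* was lost without array 2, 3 or 4, with means of −0.75, −0.49 and −0.65, and its mean was −0.19 with normexp and loess. *PLIN2*, the droplet coat protein of most cells, had a log2 ratio of −0.03 ± 0.02 (limma adjusted p = 0.699) at its brightest probe, and its 4 probes ranged from −0.22 to 0.35. *LEP*, which encodes leptin, *CIDEC* and *RETN* were not well above background on any array, and *PLIN1* had no named probe.

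Among the fatty acid binding proteins and the partners of *LPL*, 4 genes were tested and 1 rose. *FABP3*, the heart and muscle member of the family to which *FABP4* belongs, had log2 ratios of 0.66 to 0.67 at its 5 probes, all past both thresholds. At its brightest probe the mean was 0.67 ± 0.42 (SD, n = 4), with a limma adjusted p of 0.0297, a call that was lost without array 2, 3 or 4, where the means were 0.78, 0.51 and 0.60. *FABP5*, the epidermal member, had a log2 ratio of 0.17 ± 0.11 (limma adjusted p = 0.114).

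Of the bone morphogenetic protein (BMP) ligands, receptors and SMADs that lie upstream of *ZNF423* in adipogenic commitment, 9 were tested and 1 fell. *BMP2*, a ligand, fell by 0.41 on the log2 scale (SD 0.15, limma adjusted p = 0.0158) and was past both thresholds at both probes. Without array 3 its mean was −0.35 and with median centring −0.36, both short of the fold threshold. *BMP4*, the ligand best known for committing fat precursors, had a log2 ratio of −0.15 ± 0.06 (limma adjusted p = 0.118). *SMAD1* had one of −0.26 ± 0.17 (limma adjusted p = 0.0661) at its brightest probe, and its other probe was at 0.17.

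Markers of fibro-adipogenic progenitors and fibroblasts were detected in both groups. Of 24 listed, 18 had a probe and 17 were tested, of which 2 rose and 1, *DPP4*, was lower past both thresholds with a bound alone in GO-treated cells. *CD248*, a surface protein of stromal cells, had a log2 ratio of 0.54 ± 0.14 (limma adjusted p = 0.00675), and *OSR1*, a factor of muscle connective tissue cells, one of 0.41 ± 0.27 (limma adjusted p = 0.0418). *DPP4*, a surface peptidase, passed the filter only through the control channel, and its GO channel was not well above background on any array. Taking the GO channel at no less than the lowest signal well above background on each array, *DPP4* was at least 1.01-fold lower, a bound that was not tested. The limma adjusted p of 0.00615 is that of the ratios without this bound, whose GO values were not well above background. The call of *OSR1* was lost without array 1, 2 or 3, with means of 0.40, 0.46 and 0.28, and that of *CD248* was kept without each array. The median log2 ratio of the 17 genes was 0.08, and the matrix genes *DCN*, *COL1A2* and *COL3A1* had log2 ratios of 0.04, −0.05 and −0.10 at their brightest probes, which did not pass. Other probes of these genes differed: 1 of 2 of *DCN* passed, at 0.42, 2 of 9 of *COL1A2* passed, with values down to −0.42, and the 7 probes of *COL3A1* ranged from −0.18 to 0.37. Of other matrix genes of the list, *POSTN* (−0.47) and *FN1* (−0.26) were lower on all 4 arrays and *MFAP5* (0.26) was higher on all 4. *LUM* (0.08) and *FBN1* (0.02) took both signs. At their brightest probes these did not pass either, and 2 of 4 probes of *POSTN* passed. *NT5E* (0.30), *S100A4* (0.33) and *FAP* (0.24) were higher on all 4 arrays. Their limma adjusted p-values were 0.0435, 0.0272 and 0.0369, with fold changes short of the threshold. *THY1* (0.08), *ENG* (0.19) and *VIM* (−0.10) took both signs and did not pass. Median centring without lowess gave 9 higher and 2 lower among these 17 genes, with a median of 0.39. Normexp and loess gave 3 higher and 0 lower, with a median of 0.20, and *OSR1* at 0.21 and *DPP4* at −0.10 were not called. *CD34*, a further marker of these progenitors, was not well above background on any array.

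Pericytes, which also carry *PDGFRB*, were represented by 4 tested genes, and at their brightest probes 0 passed in limma, with 0 at an unadjusted p below 0.05. The log2 ratios were 0.04 for *CSPG4*, 0.06 for *ACTA2*, 0.05 for *TAGLN* and 0.02 for *MCAM*. Of the 4 tested probes of *MCAM*, 2 dimmer ones were past both thresholds, and the lowest was at −0.70. *RGS5*, *ABCC9* and *KCNJ8*, which are closer to pericytes alone, were not well above background on any array. *ANPEP* was not tested, and its 3 probes were well above background on at most 3 arrays in control cells and on 0 in GO-treated cells. Its brightest probe had log2 ratios of 0.09, −0.42, −0.72 and −1.20 on arrays 1 to 4, without a measured GO level.

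The markers of muscle lineage, which give the identity of the cultures, moved on the same arrays as the members. Of 15 listed, 10 had a probe, all 10 were well above background in both channels on every array, and 7 fell, with a median log2 ratio of −0.62. *MYF5*, a factor of committed myogenic cells, fell by 0.93 (SD 0.04, limma adjusted p = 0.00102), and *MYOG*, the factor of terminal differentiation, fell by 0.40 (SD 0.11, limma adjusted p = 0.0123). *DES*, a muscle intermediate filament, fell by 0.61 (SD 0.24, limma adjusted p = 0.0113). Without array 2 the calls of *MYOG* and *DES* were lost at means of −0.38 and −0.59, and without array 3 that of *MYOG* at −0.36, while *MYF5* was past both thresholds under all 12 other settings. Of these 12 settings, *MYOG* was past both thresholds under 5 and *DES* under 7. The second *MYOG* probe, at −0.36, was not past both thresholds. The embryonic and perinatal myosins *MYH3* and *MYH8* fell by 0.83 (SD 0.19, limma adjusted p = 0.00338) and fell by 1.08 (SD 0.43, limma adjusted p = 0.00824). The skeletal actin gene *ACTA1* fell by 0.64 (SD 0.22, limma adjusted p = 0.00825). *MYOD1*, the factor of myoblasts, had a log2 ratio of −0.36 ± 0.33 (limma adjusted p = 0.0905), and *PAX7*, the factor of quiescent satellite cells, had no named probe.

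The summed signal of the muscle markers ranged from 165661 to 228222 in control and from 98313 to 138381 in GO-treated cells, without overlap, and without *MYH3*, the brightest, the ranges were 97691 to 140676 and 58924 to 88860. The summed signal of the fibro-adipogenic and fibroblast markers ranged from 532591 to 801201 and from 564244 to 748320, with overlap. The part of these shifts in the ratios of *PDGFRA* and *ZNF423* was not tested. With median centring 3 muscle markers fell, with a median of −0.35, and *ACTA1* and *MYH3* came to −0.08 and −0.15.

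Endothelial markers were near background, while some leukocyte and adipocyte markers were detected. Of 5 endothelial markers with a probe, among them *PECAM1*, 0 passed the filter, and their summed signals ranged from 27.5 to 36.5 in control and from 29.3 to 39.8 in GO-treated cells. Of 8 leukocyte markers with a probe, *CD68* and *CD14* were tested and 0 passed in limma, with 1 at an unadjusted p below 0.05, and *PTPRC* had no named probe. Their summed signals ranged from 4237 to 5044 in control and from 4476 to 5318 in GO-treated cells, of which *CD14* made up 97.4% to 98.4%. Of 7 adipocyte markers with a probe, *CIDEA* and *AQP7* were tested, while *ADIPOQ*, *LEP*, *CIDEC*, *FABP4* and *RETN* were not well above background on any array. The summed signals of the adipocyte markers ranged from 4284 to 4849 in control and from 2638 to 3366 in GO-treated cells, and *CIDEA* alone made up 96.8% to 98.6% of them. Without it they ranged from 64.6 to 99.1 and from 67.3 to 108.3.

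**Figure D5:**
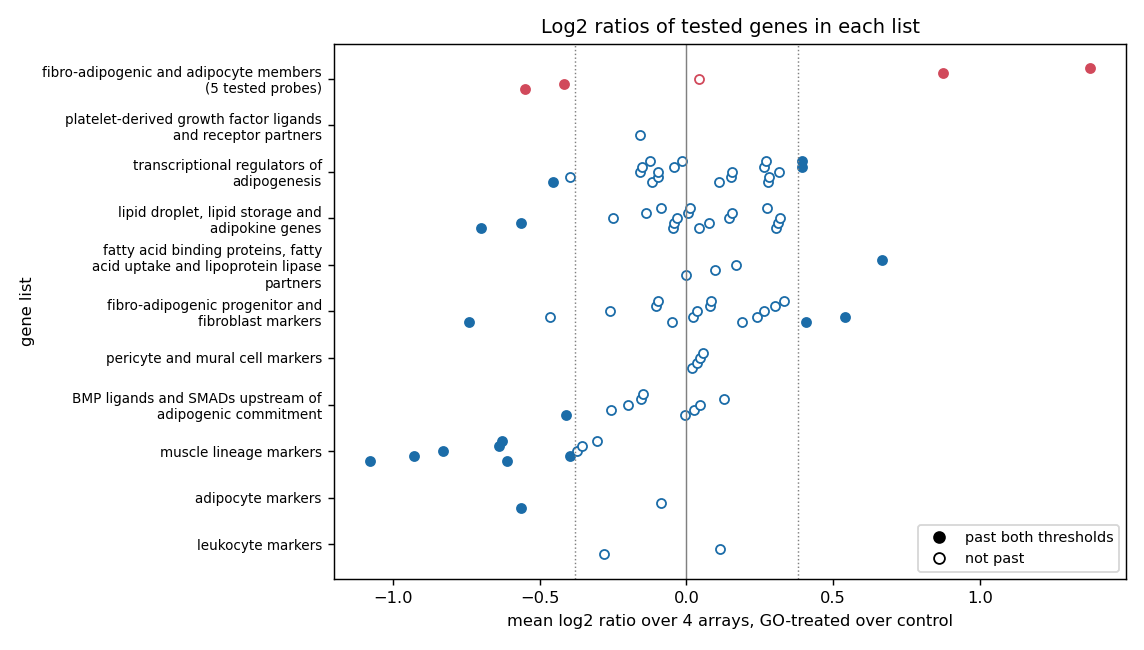
Mean log2 ratio, GO-treated over control, over 4 arrays for the 5 tested member probes (red) and for the tested genes of each list by their brightest probe (blue), filled where past both thresholds, with dotted lines at a fold change of 1.3. The muscle markers all lie below 0 with a median of −0.62, and the pericyte markers lie close to 0 at their brightest probes.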

How the data were processed

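The data are 4 two-color horse arrays of 1 slide, each with 45220 spots of 60-base probes. The authors scanned them and ran Feature Extraction (10.10.1.1 in the file headers). As intensity columns the authors deposited, for each channel, the raw mean and local background, the signal after background subtraction, and the processed signal, further detrended and dye-normalized (linear and lowess). The authors took log10 of processed Cy5 over processed Cy3 as the ratio, with 0 given for some spots that held a substitute value. The series-wide table held the same numbers (180880 of 180880 equal).

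These ratios were converted to log2. The 1417 control spots and 10 to 19 outlier spots per array were dropped, and repeated spots of 50 probes were averaged. Probes well above background on all 4 arrays in at least 1 channel were kept and tested two-sided with limma 3.58.1 in R 4.3.3 (intercept alone, eBayes, prior SD 0.144 with 3.60 degrees of freedom beside 3 residual). Thresholds followed the methods, which name no test. Deviations of the 2 channels of 1 array from their group means correlated at 0.484 to 0.862, and those of different arrays at −0.54 to 0.238, so the ratio keeps the pairing by array. All arrays shared the slide, so it could not be tested as a batch. Code was tested on simulated ratios.

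Files named 24962 probes. A further 1684 were named by gene number and 411 by accession through the RefSeq table of the horse assembly TB-T2T, used for names only, and 16546 had no name. No further member probe was found this way. Members and lists were chosen with earlier results of these data known. A marker of the lists was left out and is not reported here, and list genes that the text does not name enter its counts alone. Every member was named with all its probes. From each list up to 4 genes with the largest ratios past both thresholds and of 1 sign on all arrays were named, with a few defining markers (*PAX7*, *MYF5*, *MYOD1*, *DES*, *MYOG*, *LEP*, *PLIN1*, *PECAM1*, *PTPRC*). The 3 genes nearest in ratios to the members with the highest and lowest ratio were also named. Other list genes (*PDGFC*, *PDGFB*, *PDGFD*, *CEBPG*, *CEBPZ*, *DDIT3*, *PLIN2*, *ABHD5*, *ACACA*, *MGLL*, *FABP5*, *BMP4*, *SMAD1*, *DCN*, *COL1A2*, *COL3A1*, *FN1*, *MFAP5*, *LUM*, *FBN1*, *NT5E*, *S100A4*, *FAP*, *THY1*, *ENG*, *VIM*, *CD34*, *CIDEC*, *RETN*, the pericyte and leukocyte genes, *AQP7*, *RXRA* and *POSTN*) were named after their values were seen. Probes were shown whole only for the first probe of a gene with an open sense frame, since coding sequence could not be checked here. Substitute values are those the files mark as surrogates. The bound for *DPP4* used channel values after quantile normalization of mean intensity, and is open to dye bias. The number of arrays limits the precision. Tables and figures were made with Python 3.11.15, pandas 2.3.3 and matplotlib 3.10.9. Alternatives were normexp (offset 50) with loess, median centring, no filter on dim probes, a stricter filter, a plain one-sample test, unpaired channels, array weights, the series-wide table, the mean over a gene's probes, and leaving out each array.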

Additional observations from a re-analysis of the deposited data

How the results depend on the processing

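For the members, as a description, the directions were the same under every setting tried, for both *PDGFRA* probes, both *ZNF423* probes and *PDGFRB*. The filters, the plain test, the unpaired channels and the series-wide table leave a probe's mean as it is. Only normexp with loess, median centring, array weights and leaving out an array could change a probe's direction. Of the 2 member genes past both thresholds by their brightest probe, 1 (*ZNF423*) passed with normexp and loess and 1 (*ZNF423*) without a filter on dim probes. With the plain one-sample test and without the replicate block (channels not paired by array) 0 members passed, with 2 at an unadjusted p below 0.05 in each. Of all probes, 7556 were below it with the plain test and 4727 without the replicate block. Leaving out 1 array gave 0 to 2 members, the 0 without array 2. There 2 members were again at an unadjusted p below 0.05, beside 7311 of all probes. The members were chosen with these ratios in view, so nothing is read from their counts. For all probes, 2399 in the main setting, the count was 1297 with normexp and loess, 908 without the filter, 147 with the plain test and 919 without the replicate block, and leaving out 1 array gave 1566 (array 2) to 2430 (array 1). For the pathway lists, 10 in the main setting, it was 17 with median centring, 2 without the filter, 2 without the replicate block and 0 with the plain test (21 at an unadjusted p below 0.05), and leaving out 1 array gave 5 to 10 (5 without array 3, 6 without array 2 or array 4). The median log2 ratio of the member probes moved from 0.04 to −0.19 with the stricter filter, which drops *PDGFRA* probe A_69_P083756. Of the muscle markers 7 fell in the main setting, 3 with median centring, 3 without the replicate block, 2 without the filter and 1 with the plain test. Apart from the probe dropped by the stricter filter, the cause was not tested. Signal near background limits the values of *PDGFRA*, *PPARG* and *LPL*, and of *FABP4* and *ADIPOQ* no level was measured.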

Other observations

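For the members with the highest and the lowest ratio by their brightest probe, the genes with the most similar 4 log2 ratios were sought among all named genes, by the root mean square difference. Nearest to *ZNF423* were *PDIK1L*, a kinase-like gene, at 0.0201, *RUSC2* at 0.0361 and *FOXO1*, a forkhead factor of insulin signaling, at 0.0388. The log2 ratios of *FOXO1* were −0.30, −0.40, −0.45 and −0.44 on arrays 1 to 4. Nearest to *PDGFRA* were *IP6K1*, an inositol phosphate kinase, at 0.191, *CRIP3* at 0.226 and *FZD4*, a Wnt receptor, at 0.271. Their ratios on array 4 were 1.24 for *IP6K1*, 1.23 for *CRIP3* and 1.37 for *FZD4*, the highest of each. All these genes were picked by the 4 ratios, so a shared peak is not a separate result. The second *PDGFRA* probe, A_69_P083756, had its highest ratio, 1.97, on array 2.

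Probes of 1 gene gave different ratios in several genes of the lists. The 5 probes of *RXRA*, the partner receptor of PPAR gamma, ranged from 0.23 to 1.23 on the log2 scale, and 2 of them were past both thresholds. The 2 probes of *DCN*, a small matrix proteoglycan, were at 0.04 and 0.42, the second past both thresholds, and the 4 tested probes of *MCAM*, an adhesion molecule of mural cells, ranged from −0.70 to 0.02, with 2 past both thresholds. The 4 probes of *POSTN*, a matrix protein, ranged from −0.51 to 0.10, with 2 past both thresholds.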
